A study of Saccharomyces cerevisiae with 67 samples.

Results

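The galactose regulon of budding yeast was examined in a list of regions carrying histone H4 acetylated at lysine 12 (H4K12ac). The members were fixed by name as GAL1, GAL2, GAL3, GAL4, GAL7, GAL10 and GAL80, and all 7 were found by symbol in the RefSeq annotation, which lists 6002 protein-coding genes on the nuclear chromosomes. H4K12ac ChIP-seq libraries were made from BY4741 cells lacking MIP6 (mip6D) and from wt BY4741 cells, all grown in rich medium (YPD, in which the sugar is glucose) to exponential phase. There were 11 mip6D libraries, with 4 kept at 30 °C, 3 after 20 min at 39 °C and 4 after 120 min at 39 °C, and 8 wt libraries, with 3, 1 and 4 at the same points. The authors merged the peaks called across their H4K12ac samples, of which these 19 libraries are described in the labels, into 1 list of 1970 regions that holds positions on the sacCer3 genome and no height, score or sample. On the authors' description of the merge, a base outside every region was in no called peak of any merged library. A base inside was in a peak of at least 1 of them. The shortest gap between regions was 229 bp, and whether close peaks had also been bridged was not examined. Neither strains nor times can be compared. No replicate error and no test exist for the values below, which describe this list. The list carries no read depth, and RNA, total H4 and H4K12ac levels were not analysed here.

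Galactose enters the yeast cell through the permease Gal2 and is turned into glucose-1-phosphate by the Leloir pathway, in which Gal1 is the galactokinase, Gal7 the galactose-1-phosphate uridylyltransferase and Gal10 the UDP-galactose epimerase, which also has mutarotase activity. The activator Gal4 binds upstream of these genes, the inhibitor Gal80 binds Gal4 and blocks activation, and the sensor Gal3, a relative of Gal1, relieves that block when galactose is present. In glucose the enzyme and permease genes are strongly repressed, in part by the repressor Mig1, whereas the regulators keep a basal level of expression. Acetylation of H4 at lysine 12 is a mark of active promoters.

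The promoter sequences are shown first because regions covered some of them and not others. In each of the sequences that follow, capitals mark matches to the Gal4 motif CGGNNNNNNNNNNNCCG, which reads the same on both strands, and bases are given 5′ to 3′ in the direction of the gene named, or of GAL1 for the promoter that GAL1 and GAL10 share. All come from the RefSeq R64 genome, the assembly behind sacCer3. None of the bases printed for the GAL1-GAL10 and GAL2 promoters lay in a region, and every base printed for the other genes did.
GAL1-GAL10 (chrII:278548-278641, plus strand): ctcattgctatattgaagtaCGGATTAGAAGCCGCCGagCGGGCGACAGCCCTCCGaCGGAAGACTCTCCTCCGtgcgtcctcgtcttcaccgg
GAL2 (chrXII:289776-289920, plus strand): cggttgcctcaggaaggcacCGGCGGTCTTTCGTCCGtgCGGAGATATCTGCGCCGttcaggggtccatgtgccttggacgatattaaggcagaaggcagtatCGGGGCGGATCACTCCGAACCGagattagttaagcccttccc
GAL7 (chrII:275683-275739, minus strand): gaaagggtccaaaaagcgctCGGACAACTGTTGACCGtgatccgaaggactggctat
GAL3 (chrIV:463126-463182, plus strand): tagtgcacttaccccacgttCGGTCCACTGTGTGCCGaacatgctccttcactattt
GAL4 (chrXVI:82790-82846, minus strand): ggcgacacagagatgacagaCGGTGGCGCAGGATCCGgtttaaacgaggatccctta
GAL80 (chrXIII:171402-171458, plus strand): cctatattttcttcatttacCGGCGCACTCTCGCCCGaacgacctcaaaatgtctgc

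H4K12ac regions covered the starts of the regulator genes and left out most starts of the enzyme and permease genes. The gene start, taken as the first base of the coding sequence, lay in a region in 1 of the 4 enzyme and permease genes (GAL7) and in 3 of the 3 regulator genes (GAL3, GAL4 and GAL80). Over all members the count was 4 of 7, beside 89.9% of all protein-coding genes. The promoter, taken as the 500 bp upstream of the start, was touched by a region in 5 of 7 members, beside 92.4% of all genes, and was wholly inside regions in 4 of 7, beside 79.7%. GAL7 and the 3 regulators made up those 4. The difference between the roles was not tested, since 4 and 3 genes are not replicates of a condition and GAL1 and GAL10 share 1 promoter.

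**Figure D1:**
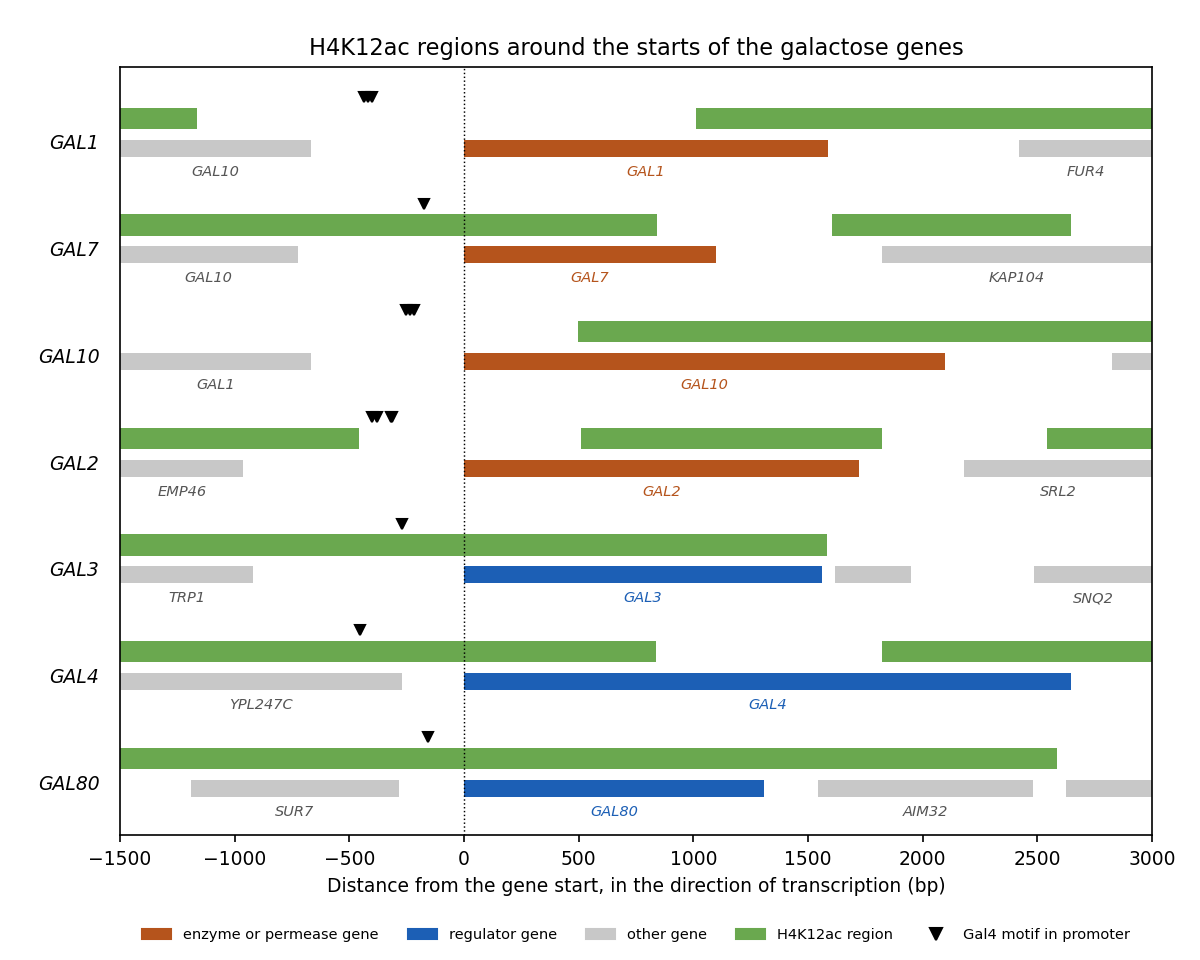
Maps of the 7 members on 1 scale, with distance from the gene start in bp on the x axis, transcription running to the right, H4K12ac regions in green, genes as bars below them and Gal4 motif matches within 500 bp upstream as triangles. The starts of GAL1, GAL10 and GAL2 lie in white gaps together with their clusters of Gal4 motif matches, whereas a green region spans the start of GAL7, GAL3, GAL4 and GAL80.

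The GAL1-GAL10 promoter lay wholly outside the list. GAL1 (YBR020W, chromosome II, 279021 to 280607, plus strand) and GAL10 (YBR019C, chromosome II, 276253 to 278352, minus strand) are transcribed away from each other, and their coding sequences are separated by 668 bp. Regions covered 0 of these bases, and the promoters of GAL1 and GAL10 were the 2 among the members with no covered base, beside 7.61% of all promoters. A gap of 2177 bp, from 277856 to 280032, held both starts, the whole intergenic interval and the 5′ part of each gene. Of the 1954 gaps between neighbouring regions, 66.1% were shorter. Among the 1527 divergent gene pairs of the genome, both starts fell in the same gap in 71, or 4.65%, and both fell in regions in 1320.

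Within this gap the edges were unequally placed. The nearest region to the start of GAL1 began 1012 bp downstream, inside the coding sequence, so that 575 of its 1587 bp, or 36.2%, were covered, all at the 3′ end. That region, from 280033 to 284650, runs on through FUR4, the uracil permease gene, and POA1. GAL1 had the lowest covered share of the 7 members. For GAL10 the nearest region began 497 bp downstream of the start and covered the rest of the gene, 1603 of 2100 bp or 76.3%. Regions thus took in 0% of the first 500 bp of GAL1 and 0.6% of those of GAL10, where the median over all genes was 100%.

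The region that entered GAL10 from its 3′ side also held the start of GAL7. It runs from 274684 to 277855, is 3172 bp long and holds 1 protein-coding gene start, that of GAL7 (YBR018C, chromosome II, 274427 to 275527, minus strand). The start of GAL7 lay 843 bp from the nearer edge, its promoter was covered in full, and 844 of its 1101 bp, or 76.7%, were covered. The uncovered 257 bp were at the 3′ end, the opposite arrangement to that of GAL1 and GAL10. The 725 bp between GAL7 and GAL10 lay wholly inside this region.

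An annotated antisense RNA starts in the same region. YNCB0008W (chromosome II, 276805 to 280645, plus strand) is described in the annotation as a long non-coding RNA antisense to GAL10 that also overlaps GAL1. Its start lay inside GAL10, 1547 bp downstream of the GAL10 start, and 1050 bp from the right edge of the region. The bases are shared by the 3′ part of GAL10 and the 5′ part of the antisense RNA, and a list without strand cannot assign the region to either. All 7 antisense RNAs of the annotation start in a region, beside 89.9% of protein-coding genes. Regions cover 61.8% of the 16 chromosomes. A count of 7 is too small to set the antisense RNAs apart from protein-coding genes, and no test was run. A match to the motif of Reb1, a general regulatory factor, lay 173 bp upstream of the annotated start of YNCB0008W and inside the region. It is shown in capitals (TTACCCG, searched on both strands within 300 bp of that start). In the unlike window of 500 bp promoters the motif was found in 10.1% of all genes, and 96.7% of those had their start in a region.
YNCB0008W (chrII:276602-276668, plus strand): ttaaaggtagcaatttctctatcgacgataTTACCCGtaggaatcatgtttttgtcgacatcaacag

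GAL2, the permease gene, also had its start outside and its end inside a region, at another locus. GAL2 (YLR081W, chromosome XII, 290212 to 291936, plus strand) started in a gap of 966 bp, from 289754 to 290719, shorter than the GAL1-GAL10 gap and than the median gap of 1617 bp, with 26.5% of gaps shorter still. The region upstream ended 459 bp before the start, and the next began 508 bp downstream of it. Only 42 of the 500 promoter bases were covered, or 8.4%, and none of the first 500 bp of the gene. The region in the gene body, from 290720 to 292034, covered 1217 of the 1725 bp, or 70.6%, and held no start of a protein-coding gene. It was a short one, since 13.8% of all regions were shorter, while the region upstream of GAL2 reached 11886 bp and held 9 gene starts, among them that of the ribosomal protein gene RPL10.

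GAL1, GAL10 and GAL2 thus belonged to the genes whose start lay outside and whose end lay inside a region. This class held 138 of the 6002 genes, or 2.30%. Most genes, 64.9%, had both ends inside, as GAL3, GAL4 and GAL80 did, and 25.0% had the start inside and the end outside, as GAL7 did. None of the members fell among the 7.8% with both ends outside. The end of the gene lay in a region in 6 of 7 members, beside 67.2% of all genes, and a gene's end can be covered from the promoter of its neighbour. No 50-mer of the 7 genes and their promoters occurred elsewhere in the genome. How the reads themselves were placed there was not examined.

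**Figure D2:**
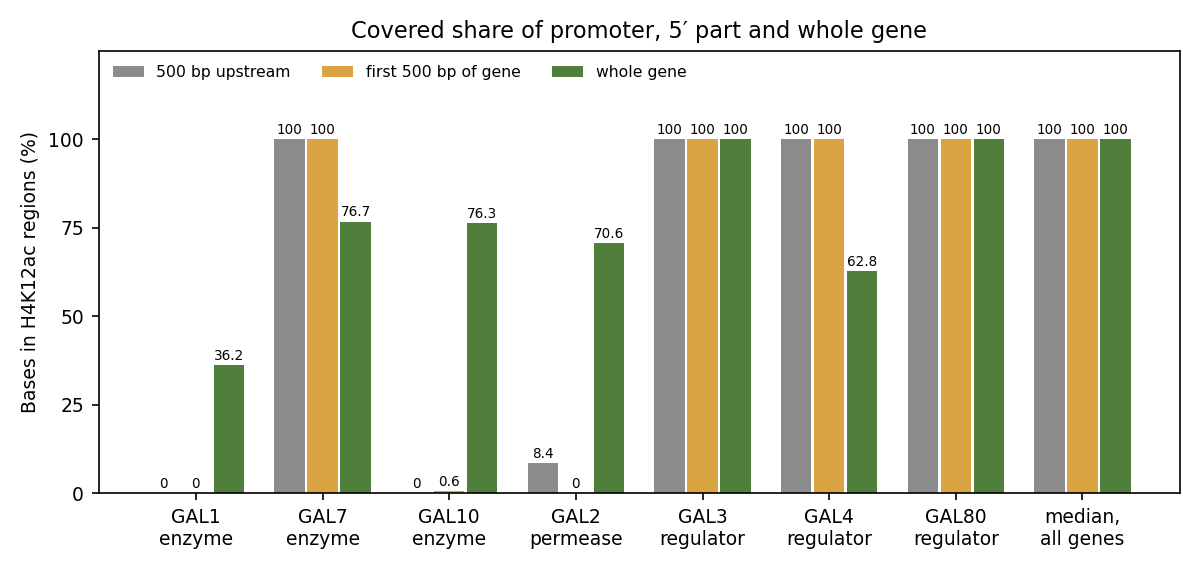
Bases inside H4K12ac regions, in percent, for the 500 bp upstream of the start (grey), the first 500 bp of the gene (yellow) and the whole gene (green), with the median over all 6002 genes at the right. GAL1, GAL10 and GAL2 have at most 8.4% of promoter and 5′ bases covered but 36.2 to 76.3% of the whole gene, while GAL7 and the 3 regulators have 100% of both 5′ windows covered.

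The regulator genes, like most genes, carried regions over the promoter and the 5′ part of the gene. Of all genes, 89.9% had the start in a region and 79.7% had the promoter wholly inside. The regions at the regulators also held starts of other genes, and the list does not assign a region to a gene. GAL3 (YDR009W, chromosome IV, 463434 to 464996, plus strand) lay whole in a region of 4253 bp, from 460765 to 465017, which also held the starts of SOK1 and TRP1 and ended 1583 bp downstream of the GAL3 start, just beyond the gene. GAL80 (YML051W, chromosome XIII, 171594 to 172901, plus strand) lay whole in a region of 5236 bp, from 168944 to 174179, with 4 gene starts. These were the 2 members covered from start to end, beside 55.0% of all genes.

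GAL4 was covered at both ends and not in the middle. GAL4 (YPL248C, chromosome XVI, 79711 to 82356, minus strand) started in a region of 7742 bp, from 81519 to 89260, that held 6 gene starts and reached 837 bp into the gene. A gap of 985 bp, from 80534 to 81518, followed inside the coding sequence, and the region from 78094 to 80533 covered the 3′ part. In all 1661 of 2646 bp were covered, or 62.8%. A start and an end inside regions with a gap between them were found in 9.88% of all genes. The annotated antisense RNA YNCP0002W (chromosome XVI, 79562 to 82648, plus strand) starts 149 bp beyond the end of GAL4, inside the region that also holds the start of GYP5.

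**Figure D3:**
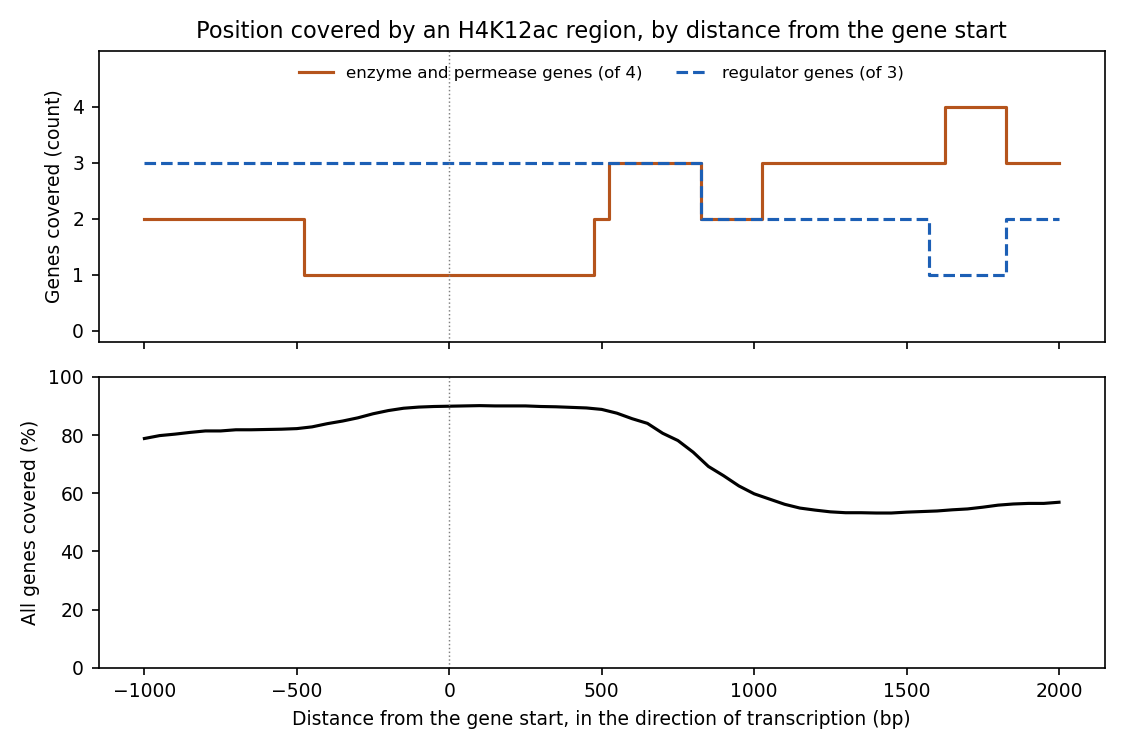
Number of enzyme and permease genes (of 4, solid line) and of regulator genes (of 3, dashed line) covered at each position, and share of all genes covered below, both in steps of 50 bp over the 1000 bp before and the 2000 bp after the gene start. Between 450 bp upstream and 450 bp downstream 1 enzyme gene and all 3 regulators are covered, where 82.8 to 90.1% of all genes are.

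The median covered share was 73.4% in the enzyme and permease genes (36.2 to 76.7%) and 100% in the regulators (62.8 to 100%), a difference of -26.6 percentage points, and 76.3% over the 7 members. Over all genes the median was 100%. In the first 500 bp of the gene the medians were 0.3% in the enzyme and permease genes and 100% in the regulators. The covered share of the whole gene therefore separated the roles less than the 5′ part did, and GAL4 had a lower share than GAL2, GAL7 and GAL10. Further downstream the counts include bases beyond the genes, since GAL1, GAL7, GAL3 and GAL80 end before 1650 bp. From 1650 to 1800 bp downstream the position was covered for 4 of 4 enzyme and permease genes and 1 of 3 regulators. Of all genes, 54.3 to 55.9% were covered there. From 1850 to 2000 bp the counts were 3 of 4 and 2 of 3.

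The starts were between 459 and 2585 bp from a region edge. Those inside regions were 837 bp (GAL4), 843 bp (GAL7), 1583 bp (GAL3) and 2585 bp (GAL80) from the nearer edge, where the median of the 5396 genes with the start inside was 1011 bp. The starts outside were 459 bp (GAL2), 497 bp (GAL10) and 1012 bp (GAL1) from the nearest region, where the median of the 606 genes with the start outside was 803.5 bp. GAL4 and GAL7 were thus nearer to an edge, and GAL2 and GAL10 nearer to a region, than the median of their class, while GAL3, GAL80 and GAL1 were farther away.

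**Figure D4:**
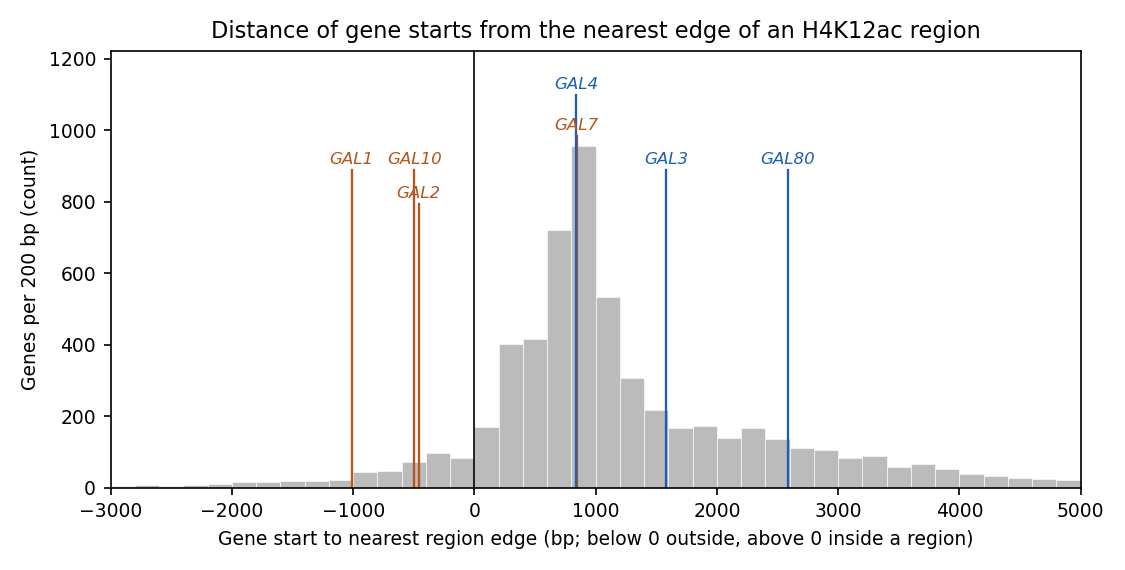
Histogram of the distance in bp from the gene start to the nearest edge of an H4K12ac region over all genes, in bins of 200 bp, with starts outside regions below 0 and starts inside above 0 (314 genes lie beyond the axis). Lines mark the 7 members, enzyme and permease genes in orange and regulators in blue: GAL1, GAL10 and GAL2 stand at least 459 bp outside, and GAL4, GAL7, GAL3 and GAL80 at least 837 bp inside.

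Among the members, the promoters wholly or mostly outside regions were those with several Gal4 motif matches. The motif was found in the 500 bp promoters of all 7 members, beside 2.98% of all promoters. There were 11 places in all, with 3 in the promoter shared by GAL1 and GAL10, 4 in that of GAL2, of which 2 overlap each other, and 1 each in GAL7, GAL3, GAL4 and GAL80. The 7 places in the GAL1-GAL10 and GAL2 promoters lay outside regions and the other 4 inside. The nearest region lay 713 to 750 bp from the matches of GAL1-GAL10 and 43 to 131 bp from those of GAL2. The match upstream of GAL4 lies inside the coding sequence of its neighbour YPL247C. A match to these letters is not a binding site, and of the 179 genes with a match 155, or 86.6%, had their start in a region, close to the 89.9% of all genes. Of the 7 genes with more than 1 match, members included, 3 had their start in a region.

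Motifs for repression were found on both sides of this division. The Mig1 motif (GGGG preceded by GC, GT, CC or CT, on either strand) was found in 22.7% of all promoters, with 2 places in the promoter shared by GAL1 and GAL10, both outside regions, and with 2 places each in GAL3 and GAL4 and 1 in GAL80, all inside. GAL7 and GAL2 had none in this window. The stretch of the GAL1 promoter with both Mig1 matches and the proximal match of GAL4 are shown with the matches in capitals, the first 896 bp or more from any region and the second 84 bp upstream of the GAL4 start and inside a region.
GAL1 (chrII:278731-278852, plus strand): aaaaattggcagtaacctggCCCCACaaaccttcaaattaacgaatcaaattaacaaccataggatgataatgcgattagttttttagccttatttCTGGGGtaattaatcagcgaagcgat
GAL4 (chrXVI:82410-82475, minus strand): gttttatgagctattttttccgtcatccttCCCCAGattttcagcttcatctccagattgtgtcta

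A TATA box match (the usual yeast consensus, read on either strand) was present in GAL1, GAL2, GAL7 and GAL80 and in 52.0% of all promoters. It therefore occurred in members on both sides, and in GAL1 and GAL2, whose starts lay outside regions, it lay 138 and 133 bp upstream of the start.

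The neighbours of the members mostly had their starts in regions, as did 89.9% of all genes. KAP104 and FUR4, which flank the GAL7-GAL10-GAL1 cluster, both did, as did EMP46 and SRL2 beside GAL2, TRP1 before GAL3, GYP5 and YPL247C beside GAL4, and SUR7 and AIM32 beside GAL80. YDR010C, beyond the end of GAL3, was the exception, with its start 366 bp from the nearest region. The gaps at the GAL1-GAL10 and GAL2 promoters thus did not extend to the starts of adjacent genes outside the regulon.

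Other genes of the pathway were taken from lists by role, and their counts are to be read beside the 89.9% of all genes with the start in a region. Among Gal4 targets and genes of the sugar phosphate steps that follow the Leloir pathway, the start lay in a region in 6 of 7, which were GCY1, MTH1, PCL10, FUR4, PGM1 and UGP1. The exception was PGM2, the main phosphoglucomutase gene, whose start lay 174 bp from the nearest region. Regions covered 0% of the gene and 65.4% of its promoter. Of 13 genes of the glucose repression machinery, 12 had their start in a region, among them MIG1, TUP1, CYC8, SNF1 and HXK2, and MIG2, a relative of MIG1, lay 382 bp away. All 5 genes for coactivators of Gal4 did, GAL11 of Mediator and SPT3, SPT7, SPT20 and GCN5 of SAGA. Of 9 other genes known to be repressed in glucose 7 did, including SUC2 (invertase), ADH2 (alcohol dehydrogenase) and PCK1 (PEP carboxykinase). The exceptions were JEN1, the lactate permease gene, at 609 bp, and ADR1, an activator gene, at 1251 bp. Regions covered 100% of the promoters of SUC2 and ADH2 but only 13.8% of that of PCK1.

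How much H4 the GAL1-GAL10 and GAL2 promoters carried is not in the list. Its peaks were called on the H4K12ac libraries without the H4 libraries, so less acetylation and fewer nucleosomes cannot be told apart at these gaps. Neither strand nor transcript is recorded for a region.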

How the data were processed

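Adapters were trimmed by the authors with Cutadapt, 50 bp reads were mapped to sacCer3 with Bowtie2, peaks were called with MACS2 on H4K12ac libraries alone and merged over all libraries with bedtools merge at default parameters. The peak threshold is not given in the sources used here. The deposited list gives region positions only, and starts were counted from 1. The 16 chromosome names and lengths were checked against RefSeq R64, whose protein-coding genes run from the first to the last coding base. A promoter was the 500 bp upstream of the start and was touched from 1 bp of overlap. Repeats were 50-mers found more than 1 time in the genome. Overlap functions were tested on simulated data. Named genes were the members, their neighbours, genes sharing their regions or gaps, and gene lists by role. The members and lists were chosen with earlier results of these data known. Alternatives varied the promoter, the start position, the overlap, the region edges and the gene set. Python 3.11.15, NumPy 2.4.6, pandas 2.3.3, SciPy 1.17.1 and Matplotlib 3.10.9 were used.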

Additional observations from a re-analysis of the deposited data

How the results depend on the processing

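The counts of members with the start in a region (4 of 7, 1 of 4 enzyme and permease genes and 3 of 3 regulators) were the same under all 7 alternatives run for them. These moved the start by 50 or 100 bp, widened it to a window, shortened regions, dropped short ones or joined close ones. None of them could have changed the counts. Every member start lay at least 459 bp from a region edge, and starts and edges were moved by at most 200 bp. The gaps at the starts outside were 966 and 2177 bp long, and only gaps up to 500 bp were joined. The regions holding the other starts were at least 3172 bp long, and only those under 1000 bp were dropped. Promoters touched were 4 or 5 of 7. With regions shortened by 100 and by 200 bp at both ends, the median covered share of the members was 67.6 and 58.5% and the difference between enzyme and permease genes and regulators -28.8 and -32.8 percentage points, as shorter regions cover fewer bases. In the first 500 bp of the gene these were 100% and -99.7 percentage points. The share of all genes with the start in a region was 87.1% with 200 bp removed at both ends, 88.6% with regions of at least 1000 bp, 92.6% for the 5625 genes more than 30 kb from a chromosome end and 94.2% for the 5686 genes with a unique start window. A stricter peak threshold was not run, since the list has no scores. No paired analysis was possible because peaks of every library were merged into 1 list, which also kept any replicate from being left out.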

Other observations

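The hexose transporter family, to which the permease Gal2 belongs, had its gene starts outside regions in most members. Of 16 HXT genes, 3 had the start in a region (HXT1, HXT2 and HXT10), beside 89.9% of all genes, and the median covered share of the gene was 25.8%, where GAL2 had 70.6% and the median of all genes was 100%. In 6 of the 16 the start window holds sequence found elsewhere in the genome, and in GAL2 it does not. All 6 had the start outside regions, and without them, a count added after seeing the data, 3 of 10 HXT genes had the start in a region.

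Promoters with more than 1 Gal4 motif match were few, 7 of 6002, and these genes were chosen after their values were seen. They were GAL1, GAL10, GAL2 and HXT3, a glucose transporter gene, with starts outside regions (HXT3 at 697 bp), and TVS1, RPL34B and SEG1 with starts inside. GAL1 and GAL10 share 1 promoter, so the starts outside stand for 3 promoters at most.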
